A study of Mus musculus with 12 samples.

Results

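The response of wild-type (WT) macrophages to IL-4 was read from 4 of the 12 arrays of the series. They are the 2 untreated WT arrays (Con) and the 2 WT arrays of cells given IL-4 (M2), chosen by their labels and paired by the number of their culture. The cells were bone marrow-derived macrophages (BMDMs), grown from the marrow of C57BL/6 mice aged 8 weeks in medium with M-CSF, the macrophage growth factor, for 7 days, and the M2 cells then received IL-4 for 6 h. Culture 1 came from male mice and culture 2 from female mice. Each culture number stands for 1 WT mouse and 1 Keap1-CKO (KpCKO) mouse, whose cells were read on separate arrays. In KpCKO mice (*Keap1* flox/flox::*LysM*-Cre) a Cre recombinase driven by the *LysM* locus removes *Keap1* in myeloid cells. The other 8 arrays, KpCKO Con and M2 and the M1 arrays of both genotypes, which received LPS and IFNγ for 6 h, entered the fit for its estimate of the spread.

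IL-4 binds a receptor built from Il4ra and a partner chain, either the common gamma chain (Il2rg) or Il13ra1. Janus kinases on these chains phosphorylate the transcription factor STAT6, which enters the nucleus and turns on its target genes. In mouse macrophages the response is known as alternative or M2 activation, with *Arg1*, *Retnla*, *Chil3* and *Mrc1* as its usual markers, and it accompanies helminth infection, allergy and tissue repair. It is set against M1 activation by LPS and IFNγ, which raises inflammatory cytokines and interferon-stimulated genes.

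All values are log2 signals relative to the 75th percentile of their array, so that 1 unit is a 2-fold change, and levels of different genes, read by different probes, are not set against each other. The 75th percentile lay between 1007 and 1166 intensity units on the 4 arrays, and 66.4% to 70.6% of the probes were well above background. The macrophage genes were present: 14 of 14 macrophage markers matched to a probe were above background on all 4 arrays. *Csf1r*, the M-CSF receptor, was at 7.07 and 7.24 in Con and at 7.34 and 7.48 in M2. The next values are for all of these markers. Their summed linear level was 1492 and 1551 in Con and 1252 and 1376 in M2. The 4 arrays of a stimulus shared a slide of their own, and stimulus and slide cannot be told apart. Nor can fewer cells of a kind be told from less RNA a cell in such bulk samples.

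With IL-4, 1929 of 22366 genes were higher and 1835 were lower (limma with culture as a block, Benjamini-Hochberg adjusted p under 0.05), which is 8.62% and 8.2% of the genes tested. More than 2-fold in both cultures and with a signal above background in the higher group, 811 genes were higher (3.63%) and 607 were lower (2.71%). The rises were larger than the falls. The median log2 difference was 1.75 among the 811 genes and −1.48 among the 607, and 143 rises against 12 falls were above 8-fold. Over all genes tested the median difference was −0.01 and the quartiles were −0.31 and 0.27. By detection, 168 genes were above background on both M2 arrays and on no Con array, of which 103 passed limma, and 483 went the other way, of which 130 passed. The Con arrays had more probes above background, 70.6% and 67.8%, than the M2 arrays, 66.4% and 67.2%. These counts therefore do not show that IL-4 turned more genes off than on. The differences of culture 1 and culture 2 correlated at r = 0.79 across genes, which are not independent replicates.

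**Figure D1:**
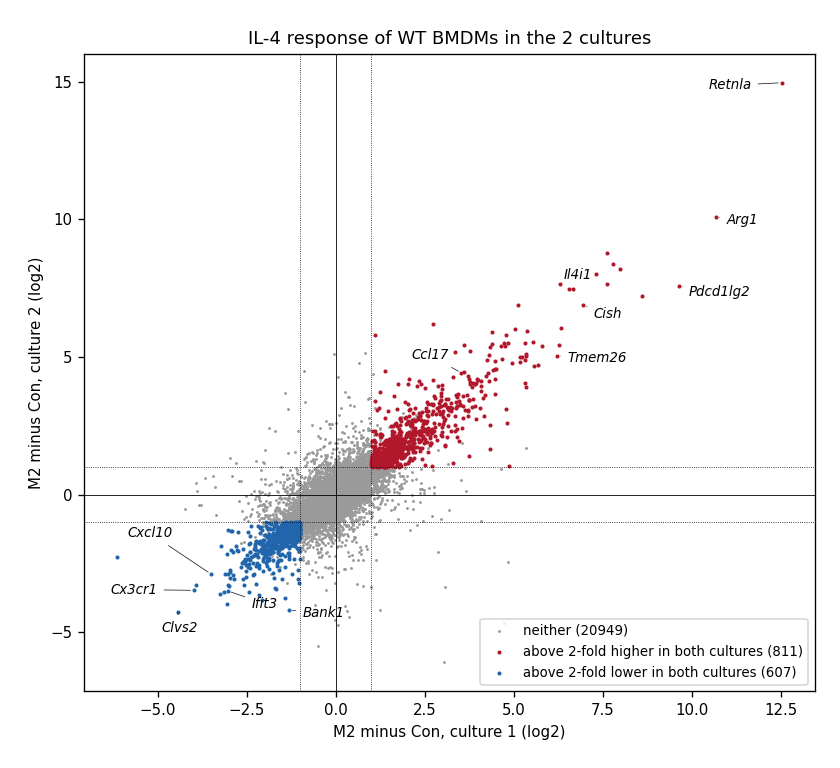
Log2 difference between M2 and Con of each gene tested, culture 1 on the x axis and culture 2 on the y axis, with dotted lines at 2-fold. The 811 genes above 2-fold higher in both cultures (red) reach 12.52 and 14.96 for *Retnla*, while the 607 genes above 2-fold lower (blue) stay closer to 0.

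Whether a call was made again with 1 array left out followed its adjusted p. Such a fit has a single array in a group and fewer residual degrees of freedom. A call can therefore be lost where the difference itself hardly changed. Of 624 genes with an adjusted p under 0.005, 619 were called again whichever 1 of the 4 arrays was left out. Between 0.005 and 0.01 this held for 40 of 524 genes, and between 0.01 and 0.05 for 0 of 2616. The adjusted p printed beside a gene below is limma's and can be read against these counts. With groups of 2, the smallest two-sided p of an exact permutation test is 0.333, so none is given.

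The largest rise was that of *Retnla*, which encodes the secreted protein RELMα. It was at −7.34 and −8.85 in Con, not well above background on either array, and at 5.18 and 6.12 in M2, at least 6128-fold higher (adjusted p = 0.00106). *Arg1*, the enzyme that turns arginine into ornithine and urea, was at −6.68 and −5.69 in Con and at 4.01 and 4.39 in M2, a rise of 10.38 ± 0.31 (SE; adjusted p = 4.6e-05). *Pdcd1lg2*, the PD-1 ligand PD-L2, was at −8.74 and −6.65 in Con, above background on 1 of the 2 arrays, and at 0.89 and 0.94 in M2 (adjusted p = 0.000422). For each of these genes the Con and M2 arrays lay far apart, and the gap was several times the distance between the cultures.

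*Cdh1*, the adhesion molecule E-cadherin, was at background in Con and at 0.47 and 0.71 in M2, at least 184-fold higher (adjusted p = 0.000115). *Il4i1*, a secreted amino acid oxidase named for its induction by IL-4, rose from −1.93 and −1.18 to 4.75 and 6.29 (adjusted p = 4.87e-05). *Rasgrp1*, a Ras activator known from lymphocytes, rose from −6.80 and −5.77 to 1.81 and 1.44 (adjusted p = 0.000157), while a dimmer probe of the same gene rose by 1.64 against 7.91. The groups did not overlap for any of the 15 largest rises, which were chosen for the size of their difference, so this adds no support.

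The 15 largest rises also held the feedback inhibitors *Cish* and *Socs1*, described with the receptor below, and genes better known from other tissues. *Scn1a* and *Scn3a*, neuronal sodium channels, were at background in Con and at least 80.5-fold and at least 76.6-fold higher in M2. *Hhip*, an antagonist of hedgehog ligands, was at least 46.2-fold higher, and *Msx3*, a homeobox gene, at least 112-fold. *Adipoq*, the fat cell hormone adiponectin, rose by 5.84 ± 0.39 (SE; adjusted p = 0.000561), with a signal above background on 1 of the 2 Con arrays. *Tarm1*, an activating receptor of myeloid cells, was at least 39.4-fold higher, and *Tmem26*, a membrane protein, rose by 5.63 ± 0.48 (SE; adjusted p = 0.00115). All 15 rises were past the threshold in every limma alternative that could be fitted for them. An unpaired t-test with Benjamini-Hochberg adjustment, not read gene by gene, called 1 of all genes higher.

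**Figure D2:**
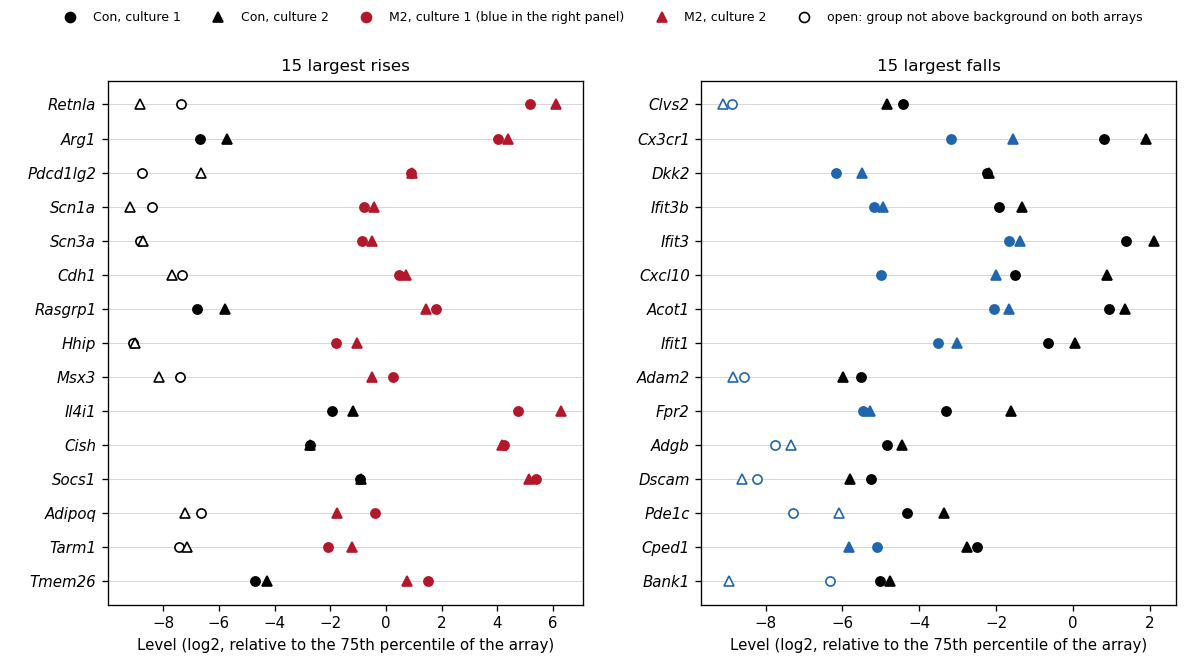
Level of the 15 genes with the largest rise (left) and the 15 with the largest fall (right) on each array, in log2 units relative to the 75th percentile of the array, with Con in black, M2 in red or blue, circles for culture 1, triangles for culture 2 and open symbols where a group was not well above background on both arrays. Con and M2 do not overlap for any of the 15 rises, which were chosen for their size. Among the falls *Cxcl10* has M2 in culture 2, at −2.0, close to Con in culture 1, at −1.50.

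The falls were smaller and several were near background. The largest named fall of a gene that all 4 arrays detected was that of *Cx3cr1*, the receptor of the chemokine fractalkine and a marker of resident and patrolling monocyte-derived cells. It was at 0.81 and 1.91 in Con and at −3.18 and −1.57 in M2 (adjusted p = 0.00652). Without WT Con replicate 1 its adjusted p was 0.0551, and without WT M2 replicate 1 it was 0.0506. A dimmer probe of the same gene differed by −2.33. *Dkk2*, a Wnt antagonist, fell from −2.23 and −2.20 to −6.16 and −5.49 (adjusted p = 0.00496). *Acot1*, a fatty acyl-CoA thioesterase, fell from 0.93 and 1.35 to −2.04 and −1.68 (adjusted p = 0.00424), and kept this call in every limma alternative. Con and M2 did not overlap for these genes, which were chosen for the size of their fall.

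*Fpr2*, a receptor for formylated peptides, fell by 2.91 on the log2 scale (adjusted p = 0.0105), and *Cped1* fell by 2.84 (adjusted p = 0.00036). *Clvs2*, *Adam2*, *Adgb* and *Dscam* were above background in Con and not in M2, and were lower by at least 4.2-fold, 1.93-fold, 4.17-fold and 2.26-fold in this order. *Pde1c* and *Bank1* were above background on 1 of the 2 M2 arrays. The brightest probe of *Pde1c* differed by −2.85, and its other probes by −1.10, −2.10, −1.25 and, at background in both groups, −0.44. With the mean of its probes *Pde1c* did not pass. *Bank1* fell by 1.31 on the log2 scale in culture 1 and by 4.20 in culture 2 (adjusted p = 0.0478), and its call was lost without any 1 of the 4 arrays, with adjusted p values up to 0.55 over its alternatives. The normexp background correction fits the background of each array and was run with an offset of 50 intensity units. With it the differences of *Clvs2* (0.04), *Adam2* (0.46), *Adgb* (0.03), *Dscam* (0.36) and *Bank1* (0.28) were no longer below 0, so the falls of these dim genes rest on how the background was handled. An added offset shrinks the log2 differences of dim genes by itself, so this setting cannot decide whether they fell. With the same correction *Cped1* (−0.70, adjusted p = 0.207), *Fpr2* (−0.93, adjusted p = 0.101), *Dkk2* (−1.33, adjusted p = 0.0504) and *Pde1c* (−0.34, adjusted p = 0.461) remained below 0 and did not pass.

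Of 402 genes above 2-fold higher for which a promoter was found in the RefSeq table (GRCm38.p6), 10.2% held TTC and GAA 4 bases apart, the spacing that STAT6 is known to prefer, in the window from 250 bases before to 50 after a start site. The same letters stood in 6.75% of all 11677 tested genes with a promoter and in 6.92% of 318 genes above 2-fold lower. Counted by promoter, since a gene can have several, the shares were 8.02%, 5.63% and 5.58%. With 3 bases between TTC and GAA, the spacing of other STAT proteins, they were 6.53% of the promoters of genes that were higher, 7.21% of all and 8.25% of the promoters of genes that were lower. GAAA repeated after 2 bases, the core of interferon response elements, stood in 2.05%, 3.08% and 7.28% of promoters in the same order, and the E-box CACGTG in 11.0%, 9.29% and 5.58%. Among rises above 8-fold, 9.9% of 101 promoters held the 4-base spacing and 11.9% the 3-base spacing. The repeated GAAA stood in 1.98% of them and the E-box in 7.92%. Both strands were searched and a match may overlap another. These shares are a description, without a test, and a match is not a binding site.

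The TTC and GAA pair stood before the start of *Retnla*, *Pdcd1lg2* and *Ccl17*, which are shown here with the match in capitals and up to 40 bases on each side, on the strand of the gene.
*Retnla*, chr16:48842424-48842513, + strand: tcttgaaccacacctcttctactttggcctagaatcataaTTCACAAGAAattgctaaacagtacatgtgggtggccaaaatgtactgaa
*Pdcd1lg2*, chr19:29410797-29410886, + strand: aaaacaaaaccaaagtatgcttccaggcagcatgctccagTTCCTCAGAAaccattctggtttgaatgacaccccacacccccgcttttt
*Ccl17*, chr8:94810259-94810348, + strand: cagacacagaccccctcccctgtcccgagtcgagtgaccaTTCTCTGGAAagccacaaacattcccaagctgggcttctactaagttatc
The matches began 145, 82 and 154 bases before the start site. *Tmem26* held 2 further matches, and the other named rises with a promoter in the table held none in this window.

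Among the falls, the repeated GAAA stood before *Ifit3*, *Ifit3b*, *Ifit1* and *Cxcl10*. The capitals mark it, read as TTTC on the opposite strand in the *Ifit* genes.
*Ifit3*, chr19:34583333-34583456, + strand: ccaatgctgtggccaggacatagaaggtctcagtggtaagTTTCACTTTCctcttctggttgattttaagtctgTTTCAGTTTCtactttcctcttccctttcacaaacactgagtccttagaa
*Ifit1*, chr19:34640745-34640853, + strand: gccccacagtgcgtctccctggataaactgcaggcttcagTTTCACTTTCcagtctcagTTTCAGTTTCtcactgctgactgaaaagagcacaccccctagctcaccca
*Cxcl10*, chr5:92349053-92349139, − strand: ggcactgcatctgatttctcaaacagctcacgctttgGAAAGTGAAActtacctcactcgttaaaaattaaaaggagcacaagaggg
The stretch before *Ifit3b* has the same letters as that of *Ifit3*. The 2 genes are near-identical copies, so their probes may share signal. The repeated GAAA was not confined to falls, as *Socs1*, a named rise, held 2 matches before its start site.

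Genes of the lists below were grouped by function, and a list is described by the number of members past limma and by its median difference. Each count stands against the 8.62% higher and 8.2% lower over all genes tested. Where the shares of a list are near these, its count does not set the list apart. Of 27 marker genes of alternative activation 20 were higher and 0 were lower, with a median log2 difference of 3.47, against 8.62% and a median of −0.01 over all genes. *Chil3* and *Chil4*, chitinase-like proteins with similar sequences, rose by 5.02 and 5.11. *Chil3* was at 0.42 and −0.42 in Con and at 5.07 and 4.98 in M2. *Mrc1*, the mannose receptor CD206, rose from 2.09 and 1.85 to 5.5 and 5.38 (adjusted p = 0.000115). *Mgl2* and *Clec10a*, galactose-binding lectins, rose by 4.84 and 2.87, and *Flt1*, a VEGF receptor, by 5.18. For *Chil3* and *Mrc1* the arrays of a group lay within 1 unit of each other and far from the other group.

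The 7 markers that did not pass were *F13a1* (−0.69), *Stab1* (−0.47), *Cd163* (−0.31), *Fn1* (0.37), *Tgm2* (0.53), *Il1rn* (0.86) and *Cd209e*, which was at background in Con and at least 3.1-fold higher in M2 without passing (adjusted p = 0.0748). *Alox15* was not tested, since no group had it above background on both arrays. Whichever 1 of the 4 arrays was left out 18 members were higher, as without the replicate block.

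Most genes of the receptor and its kinases did not pass the test, while the feedback inhibitors *Cish*, *Socs1* and *Socs2* rose. *Il4ra* differed by 0.52 (adjusted p = 0.0585), *Il2rg* by 0.18, *Jak1* by −0.11, *Jak3* by 0.25 and *Stat6* by −0.14, none past the test. *Cish* and *Socs1* are cytokine-induced inhibitors of JAK and STAT signalling. *Cish* was at −2.73 on both Con arrays and at 4.23 and 4.16 in M2 (adjusted p = 1.08e-06), and *Socs1* went from −0.92 and −0.91 to 5.40 and 5.13 (adjusted p = 4.6e-05). In neither gene did an M2 array come near a Con array.

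*Socs2* rose by 3.34 (adjusted p = 0.000253) and *Jak2* by 1.98 (adjusted p = 0.0019), whereas *Socs3* differed by 0.97 without passing (adjusted p = 0.113). *Il13ra2*, the decoy receptor for IL-13, was at background in Con and at −5.09 and −4.79 in M2, at least 4-fold higher. The signalling chain *Il13ra1* fell by 1.21 on the log2 scale (adjusted p = 0.0434), *Stat3* by 0.69 (adjusted p = 0.00515) and *Stat5b* by 0.55 (adjusted p = 0.0249). Of 26 genes on this list 6 were higher and 3 lower, and the members called lower numbered 0 without WT Con replicate 1 and 1 without each of the other arrays in turn.

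Of 22 transcription factors and cofactors known downstream of IL-4 13 were higher and 1 lower, with a median of 1.14. *Irf4*, which partners with other factors in M2 gene activation, went from −4.18 and −3.76 to 1.62 and 1.63 (adjusted p = 0.0165). *Batf3*, *Gata3* and *Egr2* rose by 5.23, 5.18 and 5.09 (adjusted p = 0.000904, 0.00114 and 0.00166). *Ppargc1b*, a coactivator of mitochondrial genes, rose by 3.11, *Bhlhe40* by 2.71, *Myc* by 2.31, *Klf4* by 2.07 and the histone demethylase *Kdm6b* by 1.91. *Pparg*, a lipid receptor, differed by 0.58 (adjusted p = 0.0974) and *Cebpb* by 0.08. *Maf* fell by 1.33 on the log2 scale (adjusted p = 0.0202). With 1 array left out the number higher was 9 without WT Con replicate 1, 7 without WT Con replicate 2, 8 without WT M2 replicate 1 and 9 without WT M2 replicate 2.

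In arginine metabolism the transporters *Slc7a2* and *Slc7a1* rose by 4.65 (adjusted p = 0.000157) and 1.35 (adjusted p = 0.00487), beside *Arg1*. *Slc7a2* was at −3.90 and −4.02 in Con and at 0.56 and 0.81 in M2. *Srm*, the spermidine synthase, rose by 1.29 and *Eif5a*, the translation factor modified with spermidine, by 1.25. *Odc1*, which makes putrescine from ornithine, differed by 0.54 (adjusted p = 0.191), *Arg2* by −0.21 and *Oat* by 0.08, none past the test, and *Sms*, the spermine synthase, fell by 0.58 on the log2 scale (adjusted p = 0.0446). *Nos2*, the arginine-using enzyme of M1 cells, was at background on all 4 arrays. In all, 6 of 22 members were higher and 1 was lower, with 4 higher and 0 lower without WT Con replicate 1 and without the replicate block.

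**Figure D3:**
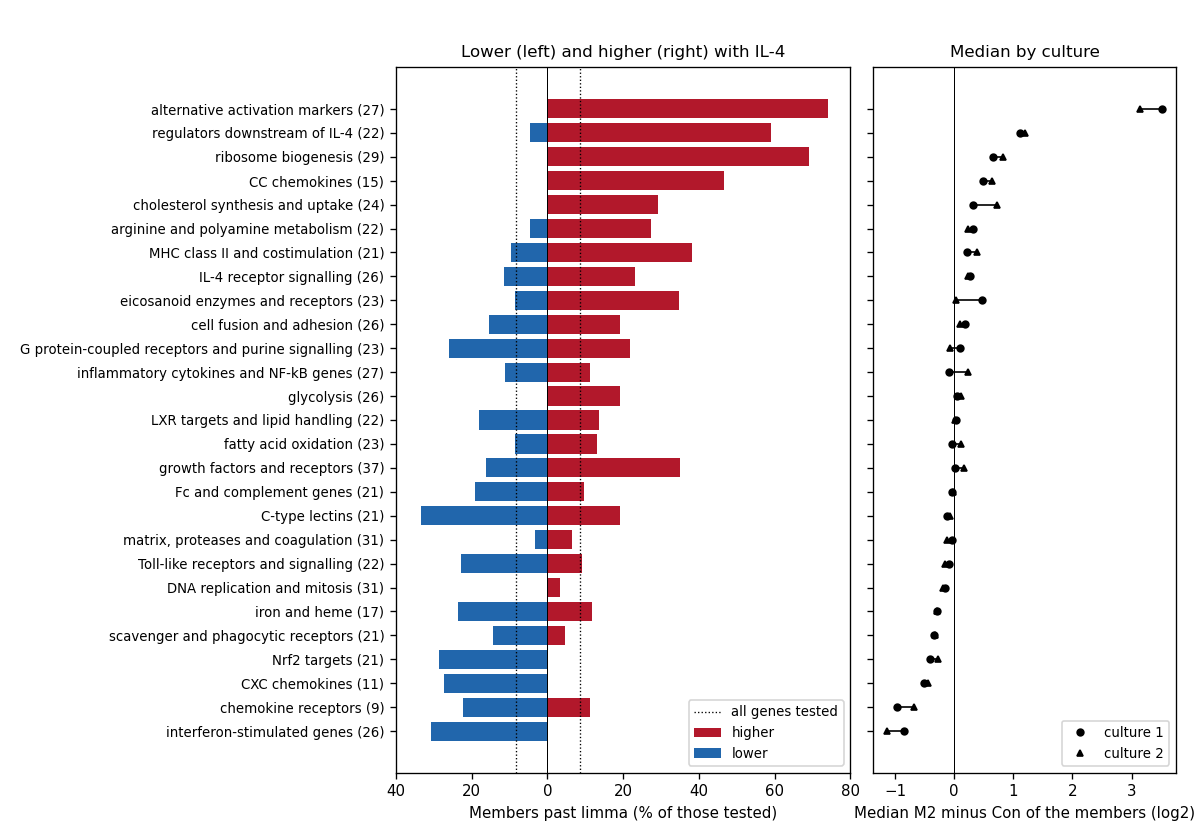
For each of 27 gene lists, with the number of genes tested in brackets, the share of members past limma (left panel, higher to the right in red, lower to the left in blue, dotted lines at the 8.62% and 8.2% of all genes) and the median log2 difference in each culture (right panel). Alternative activation markers, downstream regulators and ribosome biogenesis have the largest shares that were higher, at 74.1% of 27 genes in the first, and the median of the interferon-stimulated genes is −0.985.

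Of 15 CC chemokines, which attract monocytes, eosinophils and T cells, 7 were higher and 0 lower. Of 11 CXC chemokines 0 were higher and 3 lower, and the medians were 0.54 and −0.48. *Ccl24*, an eosinophil attractant, was at −2.11 and −1.70 in Con and at 3.42 and 3.83 in M2 (adjusted p = 0.00239). *Ccl17*, which attracts Th2 cells, was at −4.61 and −4.86 in Con and at −1.09 and −0.44 in M2 (adjusted p = 0.0016), and *Ccl22*, its neighbour with the same receptor, was at least 1.9-fold higher (adjusted p = 0.0425). The neighbouring genes of the monocyte attractants *Ccl2*, *Ccl7* and *Ccl12* rose by 2.92, 3.52 and 3.33 (adjusted p = 0.000106, 0.00036 and 0.00488). The Con and M2 arrays did not overlap for any of these genes, which were named after they had passed limma.

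Among the CXC family *Cxcl10*, an interferon-induced attractant of T cells, was at −1.50 and 0.89 in Con and at −5.00 and −2.0 in M2 (adjusted p = 0.0446). The cultures differed in level by more than 2 units in each group, and both cultures fell, by 3.50 and 2.89 on the log2 scale. Its call was lost without any 1 of the 4 arrays and without the replicate block, with adjusted p values up to 0.219. *Cxcl1* fell by 1.31 (adjusted p = 0.0248) and *Cxcl14* by 1.15 (adjusted p = 0.00555) on the log2 scale. Of the receptors, *Cxcr2*, which binds neutrophil attractants, rose by 3.14 (adjusted p = 0.0187) and *Ccrl2* fell by 1.37 on the log2 scale. *Ccr2*, which brings monocytes to tissue, differed by −1.44 without passing (adjusted p = 0.114). The CXC members called lower, not always the same genes, numbered 0 without WT Con replicate 2 and 1, 2 and 3 without WT M2 replicate 1, WT Con replicate 1 and WT M2 replicate 2.

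Part of the interferon-stimulated genes, which act against viruses, were lower. Of 26 tested 8 were lower and 0 higher, with a median of −0.985. *Ifit3* was at 1.37 and 2.12 in Con and at −1.66 and −1.39 in M2 (adjusted p = 0.00771). *Ifit1* was at −0.66 and 0.05 in Con and at −3.51 and −3.02 in M2 (adjusted p = 0.0101). *Rsad2*, the enzyme viperin, fell by 2.63, *Oasl1* by 2.42 and *Ifit2* by 2.26 on the log2 scale. For *Ifit3* and *Ifit1* the groups lay more than 2 units apart.

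The fall was not general to the list. *Stat2* (0.12), *Irf7* (0.80), *Zbp1* (0.86), *Bst2* (−0.01) and *Ifih1* (−0.27) did not pass, and *Isg15* differed by −1.20 (adjusted p = 0.0603). The members called lower numbered 0 without WT Con replicate 1, 3 without WT Con replicate 2, 6 without WT M2 replicate 1, 0 without WT M2 replicate 2 and 1 without the replicate block, and with 1 array left out the median ranged from −1.43 to −0.607. *Irf9*, a subunit of the factor that drives these genes, fell by 0.65 on the log2 scale (adjusted p = 0.0309).

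**Figure D4:**
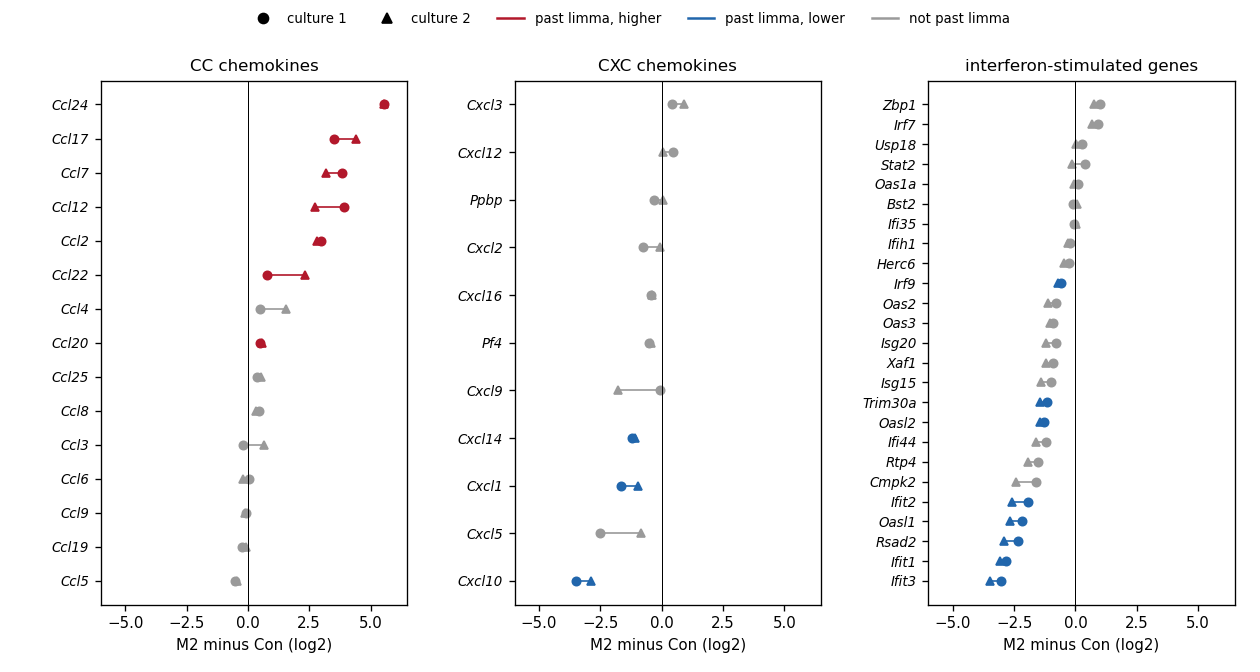
Log2 difference between M2 and Con in culture 1 (circle) and culture 2 (triangle) for tested CC chemokines, CXC chemokines and interferon-stimulated genes, coloured by limma's call. The 7 red CC chemokines reach 5.53 for *Ccl24*, and *Ifit3* is lowest among the interferon-stimulated genes at −3.27.

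Genes of microbial sensing were lower in part. *Cd14*, the LPS co-receptor, was at 6.24 and 6.47 in Con and at 3.83 and 4.40 in M2 (adjusted p = 0.000323). *Cd180* fell by 1.03, and the inhibitory kinase *Irak3* by 1.34 on the log2 scale. The Toll-like receptors themselves mostly did not pass, with *Tlr4* at −0.27, *Tlr2* at −1.55 (adjusted p = 0.194) and *Tlr9* at 0.13 as differences. *Tlr1* rose by 0.68 (adjusted p = 0.0107). In all 2 of 22 were higher and 5 lower, with 0 to 1 higher and 1 to 2 lower when 1 array was left out.

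C-type lectins, receptors for sugars, moved in both directions, 4 of 21 higher and 7 lower. The neighbouring genes *Clec4d*, *Clec4n* and *Clec4e*, which sense fungal and mycobacterial sugars and glycolipids, fell by 2.48, 2.19 and 2.09 on the log2 scale (adjusted p = 0.000796, 0.00206 and 0.0116). *Clec4d* was at 6.81 and 6.99 in Con and at 4.25 and 4.58 in M2, whereas *Mgl2* was at −3.51 and −3.27 in Con and at 0.81 and 2.09 in M2. With 1 array left out, whichever it was, 2 lectins were higher and 3 to 4 lower. *Cd209a* and *Cd209d*, which have similar sequences, were both at background in Con.

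The best known inflammatory cytokines did not pass the test. *Tnf* differed by 0.11, *Il6* by 0.42 and *Il1b* by −0.43. Of 27 cytokine and NF-κB genes 3 were higher and 3 lower, near the 8.62% and 8.2% of all genes, with a median of 0.11. *Il1b* was at 0.85 and 2.76 in Con and at 0.35 and 2.40 in M2, so that the cultures differed more than the stimuli. *Il1a* rose by 1.46 (adjusted p = 0.012) and *Csf1* by 1.16, while *Il15*, *Il18* and *Il10* fell by 1.40, 1.24 and 0.81 on the log2 scale. Without WT Con replicate 1 and without WT M2 replicate 2, 0 of the 6 calls were made. Among the receptors for such cytokines *Il1r1* and *Il1rl1*, the IL-33 receptor, rose by 2.75 and 2.53 (adjusted p = 0.00338 and 0.00216).

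Of 21 genes of antigen presentation and costimulation 8 were higher and 2 lower, and 6 to 7 were higher when 1 array was left out. *Cd40*, a costimulatory receptor, was at −2.25 and −1.50 in Con and at 1.44 and 2.11 in M2 (adjusted p = 0.00166), *Cd274*, PD-L1, rose by 2.47 and *Cd86* by 1.56. *H2-DMa*, *H2-DMb1* and *H2-DMb2*, which load peptides, rose by 1.66, 1.02 and 2.31, whereas the class II chains *H2-Aa* (0.10) and *H2-Ab1* (0.18) and their activator *Ciita* (0.84, adjusted p = 0.55) did not pass. *Cd80* fell by 0.86 on the log2 scale (adjusted p = 0.00483).

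*Fcgr2b*, the inhibitory receptor for IgG, was at 2.58 and 2.69 in Con and at 5.82 and 5.73 in M2 (adjusted p = 0.00017), and *Fcgr3* rose by 1.37. *Fcgr1*, the high-affinity receptor, fell by 1.19 on the log2 scale (adjusted p = 0.0273), and the complement receptor *C5ar1* fell by 1.13. The scavenger receptor *Msr1* fell by 1.01 and the efferocytosis bridge *Gas6* by 0.64, while the lectin-like *Olr1* rose by 3.38 (adjusted p = 0.0296). *Mertk* (−0.51), *Axl* (0.24) and *Cd36* (−0.01) did not pass. Without WT Con replicate 1 or without WT Con replicate 2, 0 of the 4 falls of Fc and complement genes and 0 of the 3 falls of scavenger receptors were called.

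Among eicosanoid enzymes the cyclooxygenase *Ptgs1* rose by 2.92 and the thromboxane synthase *Tbxas1* by 1.56. The phospholipase *Pla2g4a* rose by 1.31, a call lost whichever array was left out, and *Pla2g7* fell by 0.98 on the log2 scale. *Ptgs1* was at 2.23 and 2.73 in Con and at 5.14 and 5.65 in M2 (adjusted p = 0.00247), and the inducible *Ptgs2* differed by 1.24 without passing (adjusted p = 0.163). The receptors *Ltb4r1*, for leukotriene B4, and *Ptgir*, for prostacyclin, rose by 3.98 and 3.15 (adjusted p = 0.00239 and 0.000996). *Cysltr1* fell by 1.30 on the log2 scale. Of 23 genes 8 were higher and 2 lower, with 4 higher and 0 lower whichever 1 array was left out.

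Of 29 genes that build ribosomes 20 were higher and 0 lower, with a median of 0.74, which is under 2-fold. *Nop58*, a core protein of small nucleolar ribonucleoproteins, was at 2.22 and 1.87 in Con and at 3.19 and 3.30 in M2 (adjusted p = 0.00562), and *Gar1* rose by 1.19. *Heatr1* rose by 0.90 and *Ncl*, nucleolin, by 0.67, while *Npm1* differed by −0.07. The members called higher numbered 4 without WT Con replicate 1, 4 without WT Con replicate 2, 14 without WT M2 replicate 1, 3 without WT M2 replicate 2 and 9 without the replicate block, while the median lay between 0.706 and 0.736 under other scalings.

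Of 24 genes of cholesterol synthesis and uptake 7 were higher and 0 lower, with a median of 0.54 that was 0.32 in culture 1 and 0.72 in culture 2. *Cyp51* rose by 0.99, *Mvd* by 0.97 and *Srebf2*, the sterol sensor's transcription factor, by 0.85. The members called higher numbered 0 without 1 of WT Con replicate 1, WT Con replicate 2 or WT M2 replicate 2, and 3 without WT M2 replicate 1. The cholesterol exporter *Abca1* fell by 1.57 on the log2 scale (adjusted p = 0.0396) and *Mylip*, a ubiquitin ligase under LXR control, by 1.36 (adjusted p = 0.00488). *Ch25h*, which makes 25-hydroxycholesterol, rose by 2.63.

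In fatty acid oxidation 3 of 23 genes were higher and 2 lower at 6 h, against 8.62% and 8.2% of all genes. The median was 0.04, and −0.02 under quantile normalization. *Cpt1a*, its entry enzyme, differed by −0.18. In glycolysis 5 of 26 were higher, among them the glucose transporters *Slc2a6* (1.68) and *Slc2a1* (0.91) and the kinases *Pfkfb4* (1.28) and *Pfkp* (0.95, adjusted p = 0.00197), and the median was 0.09. Of these only *Pfkp* was called whichever array was left out. Of 31 genes of DNA replication and mitosis 1, *Bub1* (0.64, adjusted p = 0.0358), was higher and 0 were lower.

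In iron handling, *Tfrc*, the transferrin receptor that takes iron up, rose by 2.72 (adjusted p = 0.000716) and *Slc40a1*, the iron exporter ferroportin, fell by 2.54 on the log2 scale (adjusted p = 0.00277). *Tfrc* was at 0.35 on both Con arrays and at 3.35 and 2.80 in M2, and *Slc40a1* was at 4.31 and 3.98 in Con and at 1.90 and 1.31 in M2. For both genes the arrays of a group lay within 1 unit. Targets of Nrf2, the factor of the antioxidant response, were lower in part, with 6 of 21 lower, 0 higher and a median of −0.43. *Gsr*, glutathione reductase, fell by 1.65 (adjusted p = 0.0027) and *Cat*, catalase, by 0.94 (adjusted p = 0.00434) on the log2 scale, and *Hmox1* differed by −0.73 without passing. When 1 array was left out 2 to 3 members were called lower.

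Fusion and adhesion genes and growth factors held large rises of their own. *Ocstamp*, needed for the fusion of macrophages into giant cells, was at −4.33 and −3.34 in Con and at −0.73 and 1.12 in M2 (adjusted p = 0.00284), and *Itgb3*, an integrin chain, rose by 4.53 (adjusted p = 0.000202). *Itga4* and *Itga6*, also integrin chains, fell by 2.41 and 1.74 on the log2 scale. *Pdgfa* rose by 1.95, *Vegfc* by 1.48, *Igf1* by 0.74 and *Tgfb1* by 0.85, while *Vegfa* and *Hgf* fell by 1.62 and 1.18 on the log2 scale. Of the growth factors and receptors 13 of 37 were higher and 6 lower, with 1 lower whichever 1 array was left out and 6, 5, 10 and 6 higher without WT Con replicate 1, WT Con replicate 2, WT M2 replicate 1 and WT M2 replicate 2. The coagulation factors *F10* and *F7*, whose genes are neighbours, rose by 3.32 and 1.88 (adjusted p = 0.00103 and 0.0226), while *Thbs1*, thrombospondin, fell by 1.99 on the log2 scale. Of 31 genes of matrix, proteases and coagulation only these 3 passed.

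Among receptors for small ligands *P2ry1* and *Adora2b*, for ADP and adenosine, rose by 2.96 and 2.43 (adjusted p = 0.00283 and 0.00179), and *Ffar2*, for short fatty acids, by 3.19 (adjusted p = 0.0156). *Fpr1* and *Fpr2* fell by 2.56 and 2.91, and *S1pr1*, for sphingosine 1-phosphate, by 2.23 on the log2 scale. Of 23 genes 5 were higher and 6 lower, with 2 to 3 higher and 0 to 2 lower when 1 array was left out.

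Some genes that moved were neighbours on a chromosome. Of 528 protein-coding genes above 2-fold higher that could be placed in order among 14443 tested genes, 121 stood next to another one, as did 98 of 398 genes above 2-fold lower, counts that were not tested and have no background beside them. Runs of higher genes included *Ccl2*, *Ccl7* and *Ccl12*, *Cd274*, *Pdcd1lg2* and *Ric1*, *Atf5*, *Nup62* and *Il4i1*, and *Mapkapk3*, *Cish*, *Hemk1* and *6430571L13Rik*. The longest run of lower genes was *Ifit2*, *Ifit3*, *Ifit1bl1*, *Ifit3b* and *Ifit1*, whose differences lay between −3.44 and −2.26 and which are related in sequence, as are *Pilra*, *Pilrb1* and *Pilrb2*.

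Of markers of other cells the culture could hold, few passed. For T and NK cells 0 of 7, for dendritic cells 0 of 8, for fibroblasts 0 of 9, for eosinophils 0 of 3 and for erythroid cells 0 of 3 tested members passed the test. Of 6 B cell markers *Blnk*, which macrophages express too, was lower. The summed level of the B cell list was 109 and 98 in Con and 72.3 and 70.6 in M2. Of 8 mast cell and basophil markers *Hdc*, histidine decarboxylase, and *Gata2* were higher, by 2.24 and 1.39 (adjusted p = 0.0194 and 0.0304), while the summed level of the list was 0.245 and 0.229 in Con and 0.424 and 0.580 in M2, and *Ms4a2*, a defining marker, was not above background on both arrays of any group. Their part in the results was not tested. The summed level of the T and NK cell markers was 14.8 and 11.0 in Con and 7.17 and 5.6 in M2, most of it *Il7r*, whose difference of −1.06 did not pass. Of 11 neutrophil markers *Cxcr2* was higher and *Prtn3* lower, and their summed level was 17.5 and 8.46 in Con and 16.9 and 8.08 in M2, which differed between cultures and little between stimuli. Of the macrophage markers 1 of 14, *Spi1*, was higher and 5 were lower, led by *Cd14*.

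The M1 arrays share the Con arrays with this comparison, so their values stand here side by side only. In M1 the log2 difference from Con was 8.74 for *Socs1*, 5.76 for *Cish*, 7.00 for *Rasgrp1* and 5.10 for *Pdcd1lg2*, against 6.18, 6.92, 7.91 and 8.61 in M2. *Arg1*, *Retnla* and *Tmem26* were not well above background on either M1 array. Among the genes lower with IL-4 it was −5.14 for *Cx3cr1* and −5.04 for *Acot1*, and 3.39 for *Ifit3*, 9.28 for *Cxcl10* and 7.39 for *Fpr2*.

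The same stimulus was given to KpCKO BMDMs, on arrays whose levels do not enter the WT difference. These arrays do share the estimate of the spread and the culture block with it. They also lie on the same slides as the WT arrays of their stimulus. The calls of the 2 genotypes are therefore not independent. *Keap1* itself was at 3.25 and 3.16 in WT Con and at 3.06 and 2.85 in WT M2, and lower in KpCKO, at 1.79 and 1.71 in Con and at 1.36 and 0.94 in M2. By limma 1270 of 22366 genes were higher (5.68%) and 1016 lower (4.54%) in KpCKO M2 than in KpCKO Con. Of the 1929 genes higher in WT 1079 (55.9%) were higher in KpCKO, which is 85.0% of the KpCKO calls, and 0 were lower. Of the 1835 genes lower in WT 882 (48.1%) were lower in KpCKO, 86.8% of the KpCKO calls, and 0 were higher. The 811 genes above 2-fold higher had a median difference of 1.75 in WT, which chose them, and 1.43 in KpCKO.

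*Arg1* and *Ccl17* rose by 10.48 and 4.21 in KpCKO, against 10.38 and 3.97 in WT. *Cish* rose by 7.32 and *Socs1* by 5.90. *Egr2* rose by 2.50 against 5.09, without a difference in response past the test (adjusted p = 1). The response differed between the genotypes for 2 of 22365 genes (0.00894%), *Clvs2* and *Olfr20*, with 451 genes at an unadjusted p under 0.05. *Clvs2* was at least 4.2-fold lower in WT M2, where it was at background (adjusted p = 0.000106), and was at background in KpCKO Con and KpCKO M2. A fall of *Clvs2* could thus not be read in KpCKO.

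**Figure D5:**
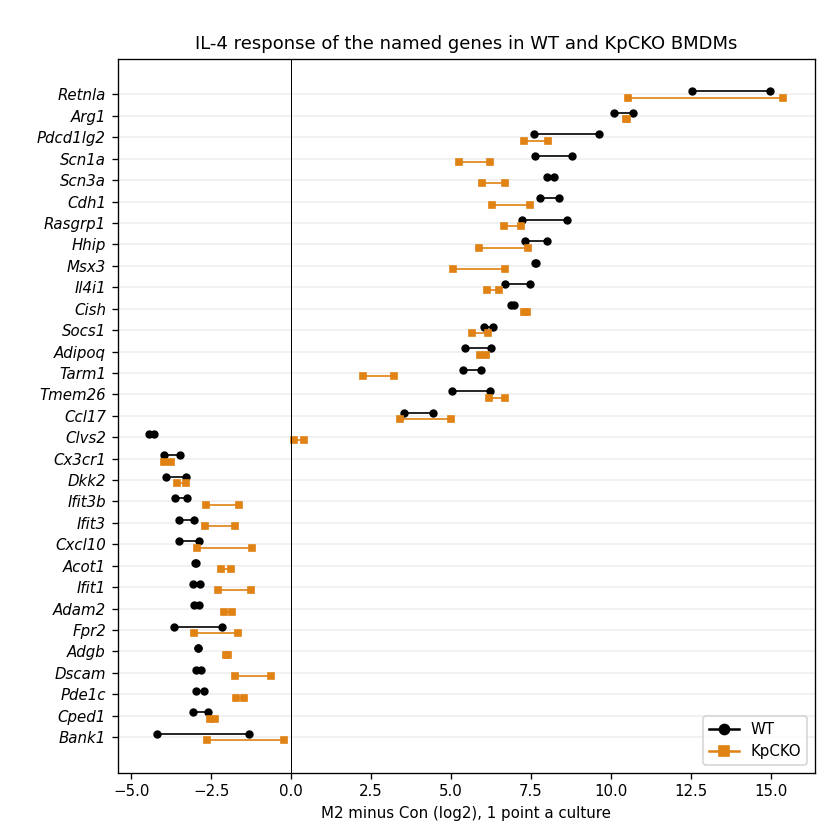
Log2 difference between M2 and Con in WT (black circles) and KpCKO (orange squares), 1 point a culture joined by a line, for the 15 largest rises, *Ccl17* and the 15 largest falls in WT. *Arg1* lies at 10.38 in WT and 10.48 in KpCKO on average, and *Cish* at 6.92 and 7.32. *Tarm1* lies lower in KpCKO, at 2.73 against 5.67.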

How the data were processed

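Whole-genome 1-colour Agilent arrays were hybridised with RNA of BMDMs in 6 groups of 2 arrays. The authors deposited the scanner output of each array, with Cy3 intensities that Agilent Feature Extraction had background-subtracted and flagged, and a matrix of log2 values scaled between arrays. That matrix had slopes of 0.999623 to 1.00036 against the log2 signals used here. From the deposited intensities, log2 of the processed signal of 41174 probes was taken, control spots were left out, and the 75th percentile of each array was subtracted. No spot was saturated. The number of arrays limits the precision.

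A gene was read by its brightest probe over the 12 arrays. Symbols came from matching the accession of a probe to a RefSeq gene table. Of the probes 26690 matched a single symbol, and the others kept their accession. Genes were tested where both arrays of at least 1 group were well above background. Tests used limma 3.58.1 (R 4.3.3) on all 12 arrays in 6 groups with culture as a block, with 5 residual and 1.92 prior degrees of freedom. The methods give an unpaired t-test as their default and name no test for the arrays in particular, which the study compared by fold in each mouse. The block rests on the labels, by which arrays with the same replicate number share a culture number. Arrays of 1 culture number deviated together (r from 0.162 to 0.597 over 15 pairs of groups and 22084 genes). A replicate is thus the cells of a single mouse, and sex and culture cannot be told apart.

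Named genes were the 15 largest rises and the 15 largest falls among genes with a symbol that passed limma and moved more than 2-fold in both cultures, with a signal above background on both arrays of the higher group. *Arg1* and *Ccl17* were added, and in each list up to 4 of the largest changes and defining members that did not pass. Some further list members and genes of neighbouring runs were named after their values were seen. A bound ("at least") compares the brighter group with the lowest signal well above background. Comparisons, lists and members were chosen with earlier results of these data known. Genes of the lists to which no probe was matched, such as *Irs2*, *Mx1*, *Clec7a* and *H2-Eb1*, were not analysed here, though the array may hold probes for them. Some list members that were counted are not reported by name. The fit was tested on simulated data. Alternatives changed the scaling, background, filter, probe rule, block, arrays, variance model, threshold and test.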

Additional observations from a re-analysis of the deposited data

Results flagged for a closer look

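The response to IL-4 differed between the genotypes for 2 genes by limma. *Clvs2* was at −4.43 and −4.83 in WT Con and at −8.87 and −9.11 in WT M2, not above background there or on any of the 4 KpCKO arrays of Con and M2, so that the response in KpCKO minus that in WT was 4.60 (adjusted p = 0.00799). *Olfr20*, an olfactory receptor gene, was above background in KpCKO M2 alone of these 4 groups, at −4.86 and −5.21, against −9.37 and −9.02 in KpCKO Con, and the difference in response was 3.87 (adjusted p = 0.0374). Both levels were near background, and *Clvs2* had no signal in KpCKO Con from which a fall could be read. What lies behind these differences was not tested.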

How the results depend on the processing

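The 1929 higher and 1835 lower genes became 1057 and 667 with the normexp background correction, 1236 and 1129 with no filter on dim probes and 859 and 681 with a mean fold above 2 beside the adjusted p. Without the replicate block they were 959 and 755 on all arrays and 768 and 569 on the 4 WT Con and M2 arrays alone, where the block gave 2070 and 2324. With 1 of the 4 arrays left out they ranged from 533 to 678 and from 362 to 489, where the lone array of a group is assumed to vary like the other groups. The methods' t-test gave 2388 and 2334 at its unadjusted threshold and 1 and 1 after Benjamini-Hochberg. The 811 and 607 genes above 2-fold became 497 and 232 with normexp and 531 and 395 among genes above background on all 12 arrays. The 2 genes whose response differed between genotypes became 0 with normexp, 0 with either stricter filter (all 12 or all 4 arrays), 0 with a floor, 0 on the 8 Con and M2 arrays, 0 with trended variances, 1 with no filter and 0 to 2 with 1 array left out. Normexp moved the median of all genes to 0.286, and with it the share of calls that were higher from 51.2% to 61.3%, against 46.7% with the percentile over detected probes. Under normexp *Clvs2* (0.0392), *Adam2* (0.46), *Adgb* (0.0314), *Dscam* (0.36) and *Bank1* (0.28) changed sign. Of 556 values of named genes under limma alternatives 507 kept direction and call, 44 lost the call and 5 changed sign, all among the falls. Of 684 list medians 142 moved by more than the spread between cultures. Genes near background are the least certain, as their signal is set by how background was removed. The causes were not tested.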
